A study of Mus musculus with 9 samples.

Results

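The expression of 9 genes of the RAS-ERK pathway was followed through sorted populations of mouse colon epithelium: the transcription factors Etv4 and Etv5, the feedback inhibitors Spry1, Spry2, Spry4 and Spred1, the ERK phosphatases Dusp5 and Dusp6, and Phlda1. These 9 of the 24421 gene symbols in the deposited table are targets and feedback inhibitors of the pathway, and the set was chosen by the Etv5 level, which was far higher in the goblet than in the enterocyte population. Levels of all 9 in that contrast, and of Etv5 everywhere, are therefore given as a description with no test. Messenger RNA was measured in 9 libraries, 3 for each of 3 populations. By their labels, the cells came from the colon of adult, untreated female C57BL/6J mice. Sex-linked transcripts of 1 library, described below, went against that sex. Goblet-enriched cells were positive for Epcam, Cd44 and Kit and are labelled as from the crypt bottom. Enterocyte-enriched cells were positive for Epcam, high for Cd66a and negative for Cd44, and the labels place them at the crypt top. Lgr5-enriched cells were positive for Epcam and Cd44, negative for Kit and also labelled as bottom crypt. All 3 sorts left out dead cells, doublets and cells with Cd3, Cd16/Cd32, Cd31 or Cd45, so each population is a gate on surface antigens and not a purified cell type. No transgene or treatment is named for any group.

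Growth factors that bind receptor tyrosine kinases load RAS proteins with GTP, and RAS then activates the kinases RAF, MEK and ERK in turn. Active ERK raises transcription of a small set of genes, among them the PEA3-type ETS factors Etv4 and Etv5, partly by removing the repressor Capicua from their regulatory DNA. Several of the induced genes act back on the cascade: Sprouty and Spred proteins restrain RAS activation, and dual-specificity phosphatases such as Dusp6 and Dusp5 remove the activating phosphates from ERK. In the intestinal crypt this pathway is known for its part in the proliferation of stem and progenitor cells.

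Promoters of Dusp6 and Etv5 are shown because Dusp6 was the gene whose higher level in goblet-enriched than in Lgr5-enriched libraries passed under every alternative setting, and because Etv5 was the gene by which the set was chosen. Dusp5 also passed in that comparison, but not under every setting, and its window is described without being printed. The sequences come from RefSeq on GRCm38.p6, the assembly also named mm10, and run 5′ to 3′ on the gene's strand from 250 bases before to 50 bases after a transcript start. RefSeq windows were matched for 6 of the 9 genes, and Etv4, Phlda1 and Spry4 were not matched. Capitals mark TGAATG or its reverse complement CATTCA, letters found within the longer site that Capicua binds. The rest of that site was not searched, so a marked stretch is a part of it and not a whole Capicua site.
Dusp6, chr10:99262981-99263280, plus strand: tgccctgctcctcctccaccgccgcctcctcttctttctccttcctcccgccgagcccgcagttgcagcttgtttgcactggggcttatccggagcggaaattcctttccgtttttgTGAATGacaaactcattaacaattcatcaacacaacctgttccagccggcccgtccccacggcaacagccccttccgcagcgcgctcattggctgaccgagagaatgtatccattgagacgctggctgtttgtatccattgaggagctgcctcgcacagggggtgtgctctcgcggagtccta
Etv5 upstream start, chr16:22439521-22439820, minus strand: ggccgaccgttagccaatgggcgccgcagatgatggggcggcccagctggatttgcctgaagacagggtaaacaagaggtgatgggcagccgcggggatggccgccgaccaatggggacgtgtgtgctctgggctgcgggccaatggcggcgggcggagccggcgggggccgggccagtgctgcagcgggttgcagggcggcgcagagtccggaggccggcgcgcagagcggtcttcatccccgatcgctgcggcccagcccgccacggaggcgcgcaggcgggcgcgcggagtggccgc
Etv5 downstream start, chr16:22438319-22438618, minus strand: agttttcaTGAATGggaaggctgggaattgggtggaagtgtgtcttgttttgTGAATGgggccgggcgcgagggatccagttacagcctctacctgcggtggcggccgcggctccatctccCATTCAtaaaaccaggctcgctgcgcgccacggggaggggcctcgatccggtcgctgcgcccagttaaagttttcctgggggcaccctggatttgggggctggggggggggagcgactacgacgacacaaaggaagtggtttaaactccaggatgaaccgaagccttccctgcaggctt
The Dusp6 window held 1 match, the upstream Etv5 window held 0, and the downstream Etv5 window held 3, 2 read forward and 1 on the other strand. Among 32851 mouse promoter windows of this length, 12.73% held at least 1 match and 0.17% held at least 3. These letters were chosen after the sequences had been viewed. Of the other windows, that of Dusp5 held 1 match and those of Spry1, Spry2 and Spred1 held none. The ETS core GGAA, searched on both strands, occurred 6 times in the Dusp6 window and 6 times in the downstream Etv5 window, but 96% of all windows held it. The longer ETS letters CCGGAA occurred in 1 member window, that of Spry2, against 14.9% of all windows, and the AP-1 letters TGANTCA in none, against 7.8%. A match is a description of these letters, since binding was not measured here.

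Levels are transcripts per 1000000 (TPM), which are scaled for transcript length and can be compared between genes. Read totals recovered from the values were 11.2 to 26.8 M (M, 1000000) per library. The deepest was Lgr5-enriched replicate 1, in which the ribosomal transcript Rn45s reached 49046 TPM, while its level elsewhere was 2356 to 6009 TPM. Enterocyte-enriched replicate 1 went against its label of female: Xist was at 0.13 TPM, against 110 to 204 TPM elsewhere, and 4 Y-linked genes summed to 138.6 TPM, against at most 0.32 TPM. As sums, the markers that name the sorts were each highest in their own population, but other cell types' markers were present too. Single goblet markers differed in order. Muc2 averaged 11440 TPM in goblet-enriched and 1207 TPM in enterocyte-enriched libraries, and Zg16 averaged 345 and 5481 TPM. Summed TPM of 9 goblet markers ran over 45630 to 62390 in goblet-enriched, 14530 to 22780 in enterocyte-enriched and 1502 to 1666 in Lgr5-enriched libraries, so the enterocyte-enriched gate also held goblet cell transcripts. Colonocyte markers summed to 576 to 1124, 6378 to 13530 and 299 to 495 TPM, and Lgr5 stem cell markers to 686 to 718, 236 to 315 and 1131 to 1374 TPM, in the same order of populations. Enteroendocrine markers summed to 13.1 to 80.0, 150 to 241 and 158 to 299 TPM, and tuft cell markers to 9.05 to 69.3, 6.48 to 9.42 and 7.77 to 10.4 TPM. Leukocyte markers reached 250 and 147 TPM in enterocyte-enriched replicates 1 and 2, mostly Lyz2, against 13.3 to 25.8 TPM in the other libraries, while Ptprc, which encodes Cd45, stayed at or below 1.2 TPM throughout. Immediate early genes, which cell dissociation can induce, summed to 18870 to 24050, 13380 to 22170 and 13750 to 25020 TPM, and replicate 1 was the lowest in each population. In bulk libraries, fewer cells of a type and less RNA per cell cannot be told apart. All 9 genes passed the filter of at least 1 TPM in at least 3 libraries.

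**Figure D1:**
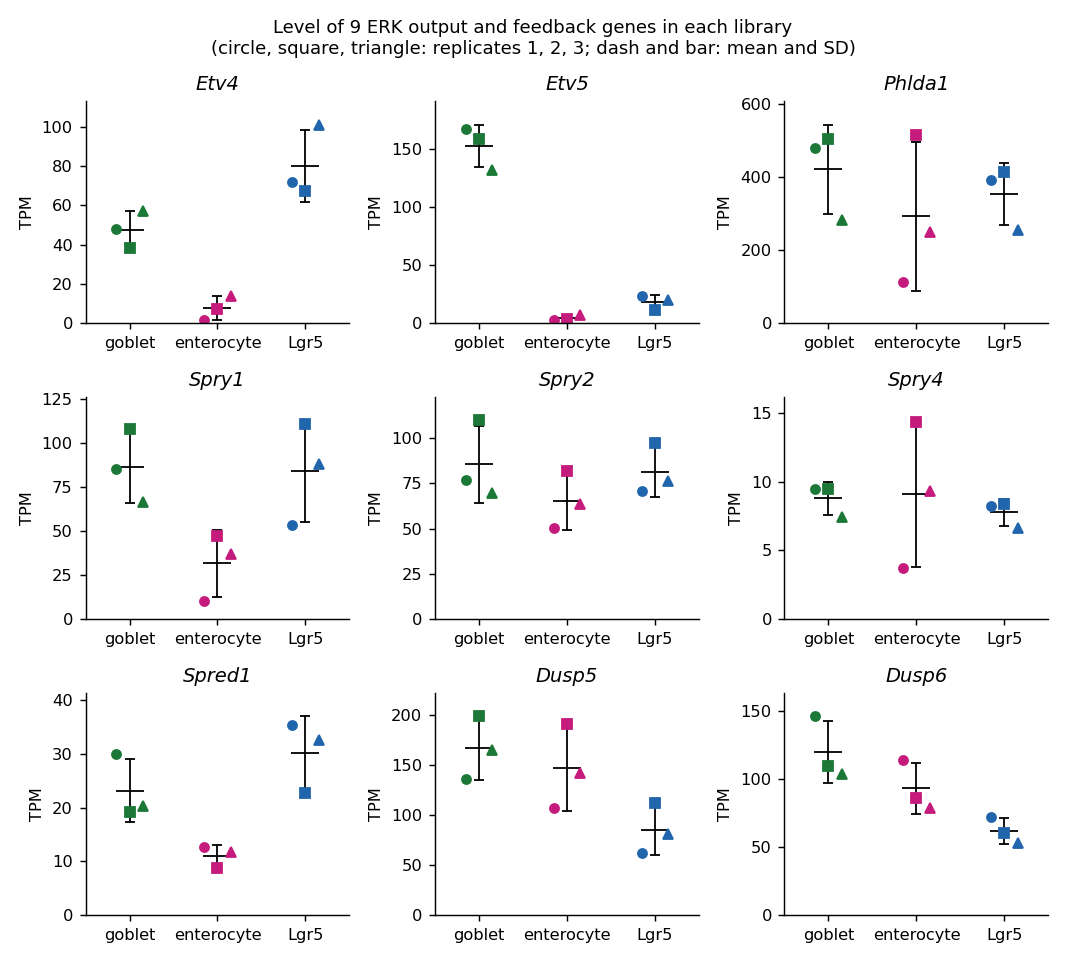
Level of each of the 9 genes in TPM (vertical axis, from 0) in the goblet-enriched, enterocyte-enriched and Lgr5-enriched populations; points are libraries, dashes means and bars SD, n = 3. Etv5 does not overlap between populations, a description since the set was chosen by it. Etv4 is highest in Lgr5-enriched libraries, though its difference from goblet-enriched ones did not pass. Spry2, Spry4 and Phlda1 overlap across all 3 populations.

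The means of the PEA3 factors Etv5 and Etv4 peaked in different populations. Etv5 led in goblet-enriched libraries, Etv4 led in Lgr5-enriched libraries, and both were lowest in enterocyte-enriched libraries. The Etv4 difference between Lgr5-enriched and goblet-enriched libraries did not pass its test, given below, and Etv5 was not tested. Etv5 (chr16:22381309-22439719, minus strand, mm10 with GENCODE M21 genes, as for the positions that follow) encodes an ETS activator that ERK signalling induces. Etv5 stood at 167, 159 and 132 TPM in goblet-enriched replicates 1, 2 and 3, at 2.88, 3.56 and 6.75 TPM in enterocyte-enriched and at 23.2, 11.6 and 19.6 TPM in Lgr5-enriched ones. No library of any population overlapped another population, in the order goblet-enriched, Lgr5-enriched, enterocyte-enriched. That is a description, since the set was chosen by a higher Etv5 level in goblet-enriched than in enterocyte-enriched libraries. Of all genes 48% did not overlap between goblet-enriched and Lgr5-enriched libraries, 61.9% between enterocyte-enriched and Lgr5-enriched and 56.5% between goblet-enriched and enterocyte-enriched ones. The Etv5 means were 153 ± 18.4 TPM in goblet-enriched, 4.40 ± 2.06 TPM in enterocyte-enriched and 18.1 ± 5.92 TPM in Lgr5-enriched libraries (SD, n = 3 each). The goblet-enriched mean was 34.7 times the enterocyte-enriched and 8.43 times the Lgr5-enriched mean. The values rest on 2606 to 3646 reads in goblet-enriched, 53 to 148 in enterocyte-enriched and 215 to 925 in Lgr5-enriched libraries.

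Etv4 (chr11:101769742-101785371, minus strand) encodes the closest relative of Etv5 among the 9 genes. It stood at 48.0, 38.0 and 56.9 TPM in goblet-enriched, 1.69, 7.44 and 14.0 TPM in enterocyte-enriched and 71.8, 67.4 and 101 TPM in Lgr5-enriched replicates 1, 2 and 3. Every Lgr5-enriched library was above every goblet-enriched one, and every enterocyte-enriched library was below both. Enterocyte-enriched libraries were lower than Lgr5-enriched ones by limma on log2(TPM + 1) with Benjamini-Hochberg adjustment over 12888 genes, with a log2 difference of -3.51 (SE 0.52, adjusted p = 0.000731). The means were 7.72 ± 6.17 and 80.1 ± 18.3 TPM (SD, n = 3 each), a 10.4-fold difference, and the adjusted p ran from 0.000368 to 0.00446 over 18 alternative settings. Enterocyte-enriched replicate 3 weighed on the first of these means, which was 4.57 TPM without it. Without enterocyte-enriched replicate 1, the library with Y-linked transcripts, the log2 difference was -2.83 (limma adjusted p = 0.000704). The difference between goblet-enriched libraries, at 47.6 ± 9.44 TPM, and Lgr5-enriched ones did not pass (log2 -0.73, SE 0.52, limma adjusted p = 0.298). It passed at an adjusted p of 0.0377 when only those 6 libraries were fitted. The goblet-enriched mean was 6.17 times the enterocyte-enriched mean, a description only.

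The balance of the pair differed between populations. Etv5 made up 77.7%, 80.7% and 69.9% of the pair's summed TPM in goblet-enriched, 63%, 32.4% and 32.5% in enterocyte-enriched and 24.4%, 14.7% and 16.2% in Lgr5-enriched replicates 1, 2 and 3. Goblet-enriched libraries were highest and Lgr5-enriched libraries lowest without overlap. That is a description with no test, since the share is built on Etv5, by which the set was chosen. Enterocyte-enriched replicate 1 stood apart from the other two of its population, with the pair at 4.6 TPM in all, against 11.0 and 20.8 TPM. Summed, the pair reached 215, 197 and 189 TPM in goblet-enriched libraries and 95, 79.0 and 121 TPM in Lgr5-enriched libraries.

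**Figure D2:**
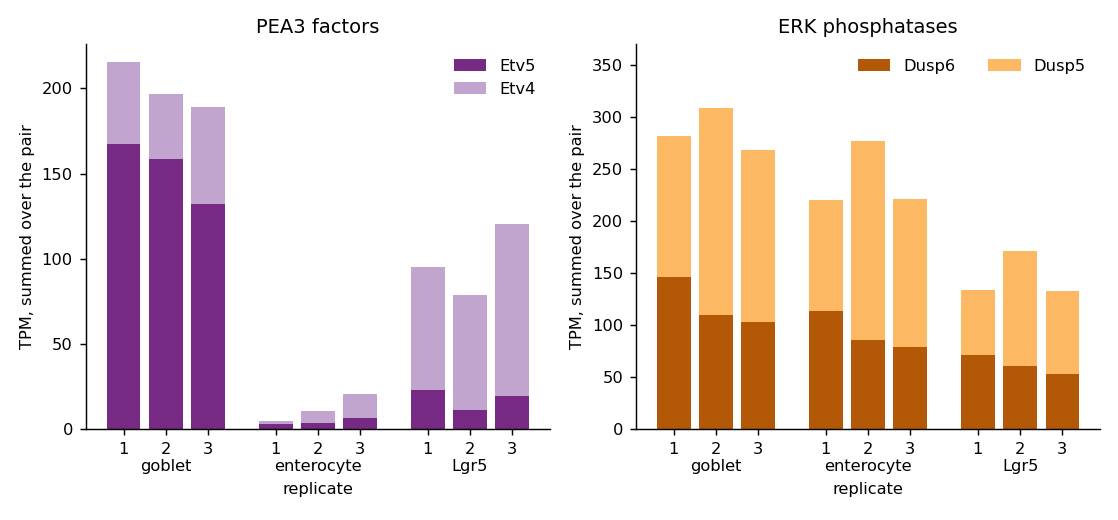
Summed TPM (vertical axes, from 0) of Etv5 with Etv4, and of Dusp6 with Dusp5, as stacked bars for each library of the goblet-enriched, enterocyte-enriched and Lgr5-enriched populations. The Etv5 share is 69.9% or more in goblet-enriched libraries and 24.4% or less in Lgr5-enriched ones, while the Dusp6 share is 51.8% or more in each replicate 1 and 39.7% or less in the others.

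The goblet cell marker sum and Etv5 did not share an order over the populations. That is a description, since the choice of the set fixed a low Etv5 level in enterocyte-enriched relative to goblet-enriched libraries. Enterocyte-enriched libraries held 14530 to 22780 TPM of goblet markers and 2.88 to 6.75 TPM of Etv5. Lgr5-enriched libraries held 1502 to 1666 TPM of goblet markers and 11.6 to 23.2 TPM of Etv5. All 9 goblet markers were higher in enterocyte-enriched than in Lgr5-enriched libraries by limma at an adjusted p under 0.05, with a median log2 difference of 4.51. Of all genes 12% were higher. Between goblet-enriched and enterocyte-enriched libraries the 9 markers were split: 5 were higher, 2 were lower and 2 did not pass. Of all genes 28.2% were higher and 15.9% lower there. The part of goblet cell content in the Etv5 levels was not tested.

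**Figure D3:**
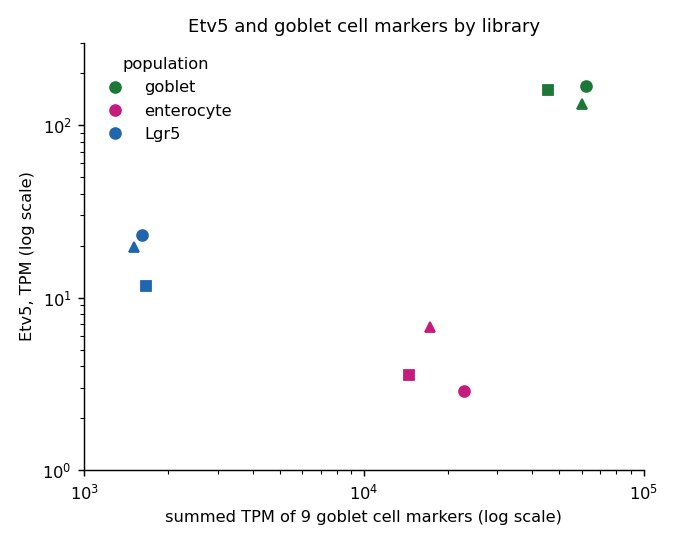
Etv5 level (vertical axis, TPM, log scale) against the summed TPM of 9 goblet cell markers (horizontal axis, log scale); each point is a library, coloured by population, with circle, square and triangle for replicates 1, 2 and 3. Enterocyte-enriched libraries have 14530 TPM or more of goblet markers and 6.75 TPM or less of Etv5, and Lgr5-enriched libraries have fewer marker transcripts and more Etv5.

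Among the Sprouty and Spred inhibitors, Spry1 and Spred1 were lower in enterocyte-enriched than in Lgr5-enriched libraries, and none of the 4 genes passed between goblet-enriched and Lgr5-enriched libraries. Spred1 (chr2:117121374-117182279, plus strand) encodes a membrane protein that brings the RAS GTPase activator neurofibromin to RAS. It stood at 30.0, 19.2 and 20.3 TPM in goblet-enriched, 12.6, 8.82 and 11.7 TPM in enterocyte-enriched and 35.5, 22.7 and 32.7 TPM in Lgr5-enriched replicates 1, 2 and 3. Every enterocyte-enriched library lay below all others, while goblet-enriched and Lgr5-enriched libraries overlapped. The enterocyte-enriched mean of 11.0 ± 1.97 TPM was 2.75-fold lower than the Lgr5-enriched mean of 30.3 ± 6.74 TPM (SD, n = 3 each; log2 -1.37, SE 0.23, limma adjusted p = 0.00142), a call kept in all 18 alternatives. The goblet-enriched mean was 23.2 ± 5.94 TPM (log2 -0.37 against Lgr5-enriched, SE 0.23, limma adjusted p = 0.24). That difference passed when the replicate number was a block, at an adjusted p of 0.0448. Each goblet-enriched library lay below the Lgr5-enriched library of its number.

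Spry1 (chr3:37639947-37644598, plus strand) encodes a Sprouty inhibitor of growth factor signalling, and Gm42922 overlaps it on the opposite strand. It stood at 85.5, 108 and 66.4 TPM in goblet-enriched, 10.4, 47.4 and 37.0 TPM in enterocyte-enriched and 53.3, 111 and 88.0 TPM in Lgr5-enriched replicates 1, 2 and 3. Every enterocyte-enriched library lay below every library of the other populations, which overlapped each other. The enterocyte-enriched mean was 31.6 ± 19.1 TPM, against 84.0 ± 28.9 TPM in Lgr5-enriched libraries (SD, n = 3 each; log2 -1.56, SE 0.50, limma adjusted p = 0.0271). The call was lost under median-of-ratios scaling (0.072), in a fit of only the 6 libraries compared (0.0523), without Lgr5-enriched replicate 2 (0.0854) and without Lgr5-enriched replicate 3 (0.075). Without enterocyte-enriched replicate 1 the log2 difference was smaller, at -0.93 (limma adjusted p = 0.0464). The goblet-enriched mean of 86.6 ± 20.7 TPM differed from the Lgr5-enriched mean by a log2 value of 0.08 (SE 0.50, limma adjusted p = 0.916). Replicate 1 had the least Spry1 in both the enterocyte-enriched and the Lgr5-enriched populations. Immediate early genes were lowest in those 2 libraries, at 13380 and 13750 summed TPM. Goblet-enriched replicate 1 was also the lowest of its population in immediate early genes, at 18870 summed TPM, but not in Spry1. The part of immediate early genes in the Spry1 result was not tested.

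Spry2 (chr14:105891947-105896819, minus strand) encodes another Sprouty inhibitor and did not separate the populations. It stood at 77.0, 110 and 69.8 TPM in goblet-enriched, 50.2, 81.9 and 63.6 TPM in enterocyte-enriched and 70.5, 97.2 and 76.0 TPM in Lgr5-enriched replicates 1, 2 and 3. The 3 ranges overlapped, and replicate 2 was the highest in each population. Against Lgr5-enriched libraries the log2 difference was 0.06 in goblet-enriched libraries (SE 0.23, limma adjusted p = 0.858) and -0.33 in enterocyte-enriched libraries (SE 0.23, limma adjusted p = 0.258). With the replicate number as a block the second passed at an adjusted p of 0.0356, but its direction turned under median-of-ratios scaling, to a log2 value of 0.08. Spry4, a further Sprouty inhibitor, was the least abundant of the 9 genes in goblet-enriched and Lgr5-enriched libraries, at 9.44, 9.49 and 7.42 TPM and at 8.24, 8.40 and 6.65 TPM. In enterocyte-enriched libraries it spread over 3.72, 14.4 and 9.30 TPM, which contained the range of the others. Its log2 differences from Lgr5-enriched libraries were 0.16 in goblet-enriched libraries (SE 0.37, limma adjusted p = 0.769) and 0.06 in enterocyte-enriched libraries (SE 0.37, limma adjusted p = 0.913).

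The make-up of the Sprouty sum in enterocyte-enriched libraries leaned to Spry2. Spry2 made up 44.8%, 48.3% and 48.6% of the summed TPM of Spry1, Spry2 and Spry4 in goblet-enriched, 78%, 57% and 57.9% in enterocyte-enriched and 53.4%, 44.9% and 44.5% in Lgr5-enriched replicates 1, 2 and 3. Every enterocyte-enriched share was above every share in the other populations, and Spry1 made up the balance, since Spry4 never exceeded 10%.

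Both ERK phosphatases were higher in goblet-enriched than in Lgr5-enriched libraries, and both were also higher in enterocyte-enriched than in Lgr5-enriched libraries. Dusp6 (chr10:99263231-99267489, plus strand) encodes a cytoplasmic phosphatase specific for ERK and is widely used as a readout of pathway activity. It stood at 146, 110 and 103 TPM in goblet-enriched, 114, 86.2 and 78.9 TPM in enterocyte-enriched and 71.6, 60.3 and 52.9 TPM in Lgr5-enriched replicates 1, 2 and 3. Every Lgr5-enriched library lay below all others, and the goblet-enriched and enterocyte-enriched ranges overlapped. The goblet-enriched mean of 120 ± 23.0 TPM was 1.94-fold higher than the Lgr5-enriched mean of 61.6 ± 9.43 TPM (SD, n = 3 each; log2 0.94, SE 0.19, limma adjusted p = 0.00575), which held in all 18 alternatives. The enterocyte-enriched mean was 93.0 ± 18.6 TPM (log2 0.58 against Lgr5-enriched, SE 0.19, limma adjusted p = 0.0307). This enterocyte-enriched call was lost without enterocyte-enriched replicate 1 (0.104) or 2 (0.0526), and without Lgr5-enriched replicate 2 (0.0724) or 3 (0.11).

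Dusp5 (chr19:53529109-53542431, plus strand) encodes the nuclear counterpart of Dusp6, and AC137853.2 overlaps it on the opposite strand. It stood at 136, 198 and 165 TPM in goblet-enriched, 106, 191 and 142 TPM in enterocyte-enriched and 61.7, 111 and 80.4 TPM in Lgr5-enriched replicates 1, 2 and 3. Goblet-enriched libraries were all above the Lgr5-enriched ones, while enterocyte-enriched replicate 1 lay within the Lgr5-enriched range. The goblet-enriched mean was 166 ± 31.4 TPM, against 84.4 ± 25.0 TPM in Lgr5-enriched libraries (SD, n = 3 each; log2 0.99, SE 0.27, limma adjusted p = 0.0192). That call was lost without goblet-enriched replicate 2 (0.0666) or 3 (0.0502), and without Lgr5-enriched replicate 1 (0.0547) or 3 (0.0612). The enterocyte-enriched mean was 146 ± 42.6 TPM (log2 0.79 against Lgr5-enriched, SE 0.27, limma adjusted p = 0.0338). Of 18 alternatives, 6 ended this call: no filter on low values (0.0539), a fit of the 6 libraries compared (0.0517), and leaving out enterocyte-enriched replicate 2 (0.114) or 3 (0.0739) or Lgr5-enriched replicate 1 (0.107) or 3 (0.0843). Replicate 1 was the lowest for Dusp5 and the highest for Dusp6 in each of the 3 populations, so the Dusp6 share of the pair was 51.8%, 51.8% and 53.7% in replicates 1 of the goblet-enriched, enterocyte-enriched and Lgr5-enriched populations, and 31.1% to 39.7% in the other libraries.

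Phlda1 (chr10:111506286-111508645, plus strand) encodes a pleckstrin homology-like domain protein described as a marker of intestinal epithelial stem cells and as a transcript that follows ERK activity, and Gm28592 overlaps it on the opposite strand. It was the most abundant of the 9 genes in 8 of 9 libraries, the exception being enterocyte-enriched replicate 1, where Dusp6 was just above it. Phlda1 stood at 479, 506 and 282 TPM in goblet-enriched, 113, 515 and 251 TPM in enterocyte-enriched and 393, 414 and 256 TPM in Lgr5-enriched replicates 1, 2 and 3. The ranges of all 3 populations overlapped, and the enterocyte-enriched libraries held both the highest and the lowest value. The log2 difference from Lgr5-enriched libraries was 0.24 in goblet-enriched libraries (SE 0.48, limma adjusted p = 0.729). In enterocyte-enriched libraries it was -0.50 (SE 0.48, limma adjusted p = 0.415), and it turned to 0.05 without enterocyte-enriched replicate 1. The enterocyte-enriched mean of 293 ± 204 TPM (SD, n = 3) was 182 TPM without replicate 2.

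Set against all genes tested, the 9 genes did not move as a block. Between goblet-enriched and Lgr5-enriched libraries 2 of the 8 genes tested were called, Dusp5 and Dusp6, both higher, where 34.3% of 12888 genes were called at an adjusted p under 0.05, 10.7% higher and 23.6% lower. Between enterocyte-enriched and Lgr5-enriched libraries 5 of 8 were called, Dusp5 and Dusp6 higher and Etv4, Spry1 and Spred1 lower, where 49.6% of all genes were called, 12% higher and 37.6% lower. The 8 genes had a median log2 difference of 0.12 in goblet-enriched and -0.41 in enterocyte-enriched libraries against Lgr5-enriched ones, beside -0.26 and -0.35 over all genes. The 2 comparisons share the Lgr5-enriched libraries. Overlap is given for the 8 genes without Etv5, since the set was chosen by Etv5. Goblet-enriched libraries did not overlap Lgr5-enriched ones in Dusp5 and Dusp6, both higher, and Etv4, lower, where 48% of all genes did not overlap. Enterocyte-enriched libraries did not overlap Lgr5-enriched ones in Dusp6, higher, and Etv4, Spry1 and Spred1, lower, where 61.9% of all genes did not. Between goblet-enriched and enterocyte-enriched libraries, with no test, Etv4, Spry1 and Spred1 did not overlap, all higher in goblet-enriched libraries. Of all genes 56.5% did not overlap there, 36% higher and 20.4% lower. The log2 differences of the overlapping genes in that contrast were 0.38 for Spry2, 0.10 for Spry4, 0.21 for Dusp5, 0.36 for Dusp6 and 0.74 for Phlda1.

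The direction of calls over all genes depended on scaling. Median-of-ratios scaling moved the median log2 difference of all genes by 0.21 between goblet-enriched and Lgr5-enriched, 0.37 between enterocyte-enriched and Lgr5-enriched and -0.17 between goblet-enriched and enterocyte-enriched libraries. Of the called genes, 31.3% were higher in goblet-enriched than in Lgr5-enriched libraries in TPM, against 54.5% after median-of-ratios scaling and 49.2% after quantile normalization. The shares were 24.2%, 54.6% and 45.6% for enterocyte-enriched against Lgr5-enriched libraries, and 63.9%, 48.3% and 54.8% for goblet-enriched against enterocyte-enriched ones. Among the 9 genes the direction turned for Spry2 between enterocyte-enriched and Lgr5-enriched libraries under median-of-ratios scaling, and for Spry4 between goblet-enriched and enterocyte-enriched libraries under both scalings; none of the others turned in these 3 comparisons.

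**Figure D4:**
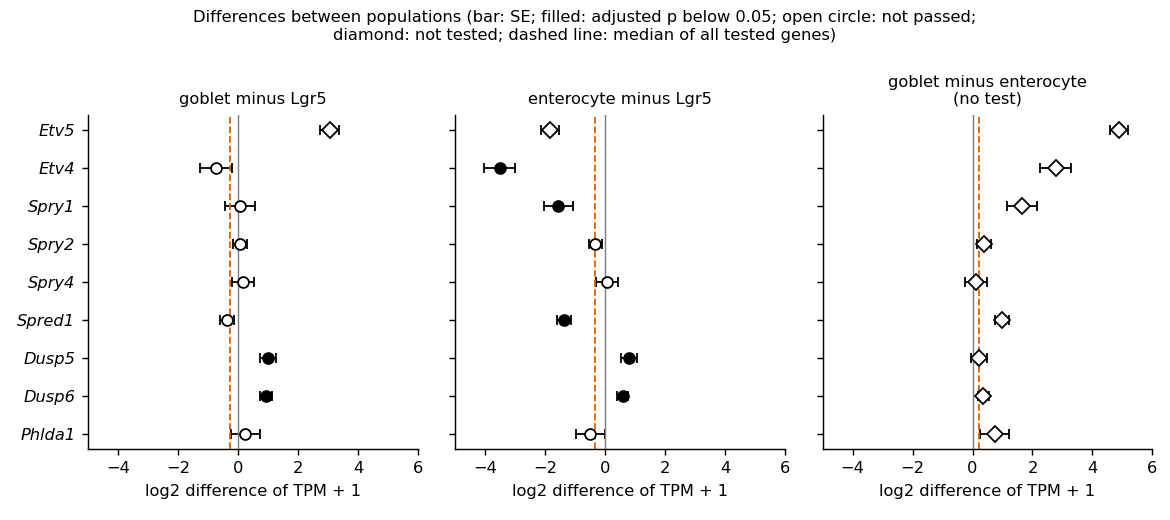
Log2 difference of TPM + 1 (horizontal axes) for each of the 9 genes in 3 comparisons, with SE bars; filled circles passed an adjusted p under 0.05, open circles did not, diamonds were not tested, and the dashed line is the median of all genes tested. Dusp5 and Dusp6 lie right of 0 in both comparisons with Lgr5-enriched libraries, and Etv4, Spry1 and Spred1 lie left of 0 in the enterocyte-enriched comparison.

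Upstream of these genes, ligands and receptors differed between the populations in both directions. Of 34 listed, 24 passed the filter on low values. Between goblet-enriched and Lgr5-enriched libraries 4 were higher (Egf, Fgfr2, Fgfr3 and Ret), 6 were lower and 14 did not pass, with a median log2 difference of -0.48. Over all genes 10.7% were higher and 23.6% lower. With the replicate number as a block 14 were called, 4 higher and 10 lower. Egf, the ligand of the receptor Egfr, stood at 10.4, 24.9 and 13.4 TPM in goblet-enriched, 1.31, 3.69 and 3.33 TPM in enterocyte-enriched and 0.20, 1.26 and 1.01 TPM in Lgr5-enriched replicates 1, 2 and 3. Goblet-enriched libraries were above all others without overlap (log2 3.20 against Lgr5-enriched, SE 0.39, limma adjusted p = 0.00048; log2 2.17 against enterocyte-enriched, SE 0.39, limma adjusted p = 0.00234). Kitl, the ligand of the receptor used as a sorting antigen, averaged 21.3 ± 1.52 TPM in goblet-enriched, 56.3 ± 4.56 TPM in enterocyte-enriched and 107 ± 12.0 TPM in Lgr5-enriched libraries (SD, n = 3 each). It was lower in goblet-enriched than in Lgr5-enriched libraries, by a log2 value of -2.28 (SE 0.13, limma adjusted p = 6.97e-06).

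Receptors for fibroblast growth factors differed from each other. Fgfr2 averaged 59.3 ± 12.1 TPM in goblet-enriched, 14.3 ± 2.67 TPM in enterocyte-enriched and 33.2 ± 11.2 TPM in Lgr5-enriched libraries (SD, n = 3 each). It was higher in goblet-enriched than in enterocyte-enriched libraries (log2 1.97, SE 0.27, limma adjusted p = 0.00049) and lower in enterocyte-enriched than in Lgr5-enriched ones (log2 -1.12, SE 0.27, limma adjusted p = 0.00761). Fgfr4 ran the other way in goblet-enriched libraries, at 10.5 ± 5.92 TPM, against 61.6 ± 14.0 TPM in Lgr5-enriched libraries (log2 -2.60, SE 0.42, limma adjusted p = 0.00209), and it was also lower in enterocyte-enriched libraries, at 17.2 ± 3.74 TPM (log2 -1.78, SE 0.42, limma adjusted p = 0.00736). In enterocyte-enriched against Lgr5-enriched libraries 2 of the 24 were higher (Tgfa and Mst1r) and 5 lower (Igf1r, Fgfr4, Fgfr2, Kitl and Egfr), with a median of -0.24. A larger share of all genes was called, 49.6%, with 12% higher and 37.6% lower. After median-of-ratios scaling 5 of the 24 were higher and 4 lower, and after quantile normalization 3 were higher and 4 lower. Igf1r, an insulin-like growth factor receptor, stood lowest in that population at 2.28 ± 0.615 TPM, against 12.5 ± 0.865 TPM in Lgr5-enriched libraries (log2 -2.06, SE 0.18, limma adjusted p = 0.000168).

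Between goblet-enriched and enterocyte-enriched libraries 7 of 24 ligands and receptors were higher and 7 lower, with a median of -0.36, where 44.1% of all genes were called, 28.2% higher and 15.9% lower. The lower genes included the Egfr ligand Areg, at 197 ± 60.4 TPM in goblet-enriched and 884 ± 713 TPM in enterocyte-enriched libraries (SD, n = 3 each; log2 -1.83, SE 0.62, limma adjusted p = 0.0394). The enterocyte-enriched replicates 1, 2 and 3 stood at 258, 1660 and 733 TPM, and 8 of 18 alternatives ended that call. The same replicate 2 also held the highest Phlda1 and Spry4 of its population. Erbb4 was listed at 0 in all libraries.

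Of 39 listed genes of the core cascade, adaptors and kinases between receptor and ERK with the regulators of RAS, 36 were tested. Between goblet-enriched and Lgr5-enriched libraries 2 were higher (Rasal1 and Elk3), 6 lower and 28 not past the threshold, with a median of -0.24. Among all genes tested 34.3% were called, 10.7% higher and 23.6% lower. With the replicate number as a block 15 were called instead of 8, 3 higher and 12 lower, and after median-of-ratios scaling 4 were higher and 2 lower. Rasa3, which encodes a RAS GTPase activator, averaged 14.6 ± 4.68 TPM in goblet-enriched, 11.9 ± 3.69 TPM in enterocyte-enriched and 72.3 ± 13.1 TPM in Lgr5-enriched libraries (SD, n = 3 each). It was lower in goblet-enriched than in Lgr5-enriched libraries (log2 -2.27, SE 0.28, limma adjusted p = 0.000487) and likewise in enterocyte-enriched ones (log2 -2.53, SE 0.28, limma adjusted p = 0.000262). Rps6ka3, an ERK-activated kinase, was lower in goblet-enriched than in Lgr5-enriched libraries, at 45.9 ± 13.8 TPM, against 85.2 ± 10 TPM (log2 -0.91, SE 0.21, limma adjusted p = 0.0104), except under median-of-ratios scaling (0.0605).

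Enterocyte-enriched libraries differed from Lgr5-enriched libraries in 18 of the 36, 4 higher (Map2k1, Mapk3, Hras and Ksr1) and 14 lower, with a median of -0.39. These shares were near those over all genes, of which 49.6% were called, 12% higher and 37.6% lower. That count depended on scaling: 10 were called after median-of-ratios scaling, 7 higher and 3 lower, and 6 after quantile normalization, 4 higher and 2 lower. Map2k1, the MEK1 kinase that phosphorylates ERK, averaged 116 ± 11.4 TPM in goblet-enriched, 269 ± 15.1 TPM in enterocyte-enriched and 102 ± 20.0 TPM in Lgr5-enriched libraries (SD, n = 3 each). It was higher in enterocyte-enriched than in Lgr5-enriched libraries (log2 1.41, SE 0.15, limma adjusted p = 0.000257) and lower in goblet-enriched than in enterocyte-enriched ones (log2 -1.21, SE 0.15, limma adjusted p = 0.000357). Ksr1, a scaffold for RAF, MEK and ERK, was likewise highest in enterocyte-enriched libraries but lowest in goblet-enriched ones, at 2.96 ± 0.604, 16.3 ± 6.84 and 7.54 ± 1.82 TPM in goblet-enriched, enterocyte-enriched and Lgr5-enriched libraries. Its log2 differences were -2.07 between goblet-enriched and enterocyte-enriched (SE 0.28, limma adjusted p = 0.00051), -1.10 between goblet-enriched and Lgr5-enriched (SE 0.28, limma adjusted p = 0.0166) and 0.97 between enterocyte-enriched and Lgr5-enriched libraries (SE 0.28, limma adjusted p = 0.019). The call against Lgr5-enriched libraries was ended by 3 of 18 alternatives in goblet-enriched libraries (adjusted p up to 0.0676) and by 4 of 18 in enterocyte-enriched ones (up to 0.0766), among them leaving out enterocyte-enriched replicate 1 (0.0525). Between goblet-enriched and enterocyte-enriched libraries 8 of the 36 were higher and 3 lower (Ksr1, Map2k1 and Rps6ka3), with a median of 0.12. Among all genes tested 44.1% were called, 28.2% higher and 15.9% lower. With the replicate block 19 of the 36 were called, 10 higher and 9 lower. Median-of-ratios scaling called 5 higher and 10 lower, and quantile normalization 4 higher and 4 lower. Rasal2, another RAS GTPase activator, was among the higher genes (log2 0.86, SE 0.20, limma adjusted p = 0.00808), except under quantile normalization (0.0598).

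Of 26 further outputs and inhibitors 22 were tested, and between enterocyte-enriched and Lgr5-enriched libraries 9 were lower and 1 higher, with a median of -0.84. The share that was lower was near the 37.6% over all genes. The count was 9 with 1 higher under both other scalings. The higher gene was Emp1, an epithelial membrane protein, at 295 ± 130 TPM, against 23.9 ± 16.4 TPM (log2 3.70, SE 0.57, limma adjusted p = 0.000923). Myc, the growth-promoting transcription factor, averaged 62.8 ± 13.7 TPM in goblet-enriched, 22.0 ± 6.94 TPM in enterocyte-enriched and 91.1 ± 17.9 TPM in Lgr5-enriched libraries (SD, n = 3 each). It was lower in enterocyte-enriched than in Lgr5-enriched libraries (log2 -2.03, SE 0.26, limma adjusted p = 0.000434). Lrig1, a receptor inhibitor also used as a stem cell marker, averaged 230 ± 36.6, 78.3 ± 36.1 and 332 ± 40.5 TPM in the same order, and it was lower in enterocyte-enriched than in Lgr5-enriched libraries (log2 -2.19, SE 0.34, limma adjusted p = 0.000874) and higher in goblet-enriched than in enterocyte-enriched ones (log2 1.66, SE 0.34, limma adjusted p = 0.00399).

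Between goblet-enriched and Lgr5-enriched libraries 2 of these 22 genes were higher (Dusp1 and Dusp7) and 6 lower, with a median of -0.53. The shares over all genes were near these, at 10.7% higher and 23.6% lower. After median-of-ratios scaling 3 of the 22 were higher and 4 lower. Dusp7, a cytoplasmic ERK phosphatase of the same subgroup as Dusp6, stood at 23.9, 17.4 and 21.4 TPM in goblet-enriched, 3.11, 2.80 and 4.07 TPM in enterocyte-enriched and 9.72, 11.8 and 6.63 TPM in Lgr5-enriched replicates 1, 2 and 3. No populations overlapped, and Dusp7 had the order of Etv5: goblet-enriched, Lgr5-enriched, enterocyte-enriched. It was higher in goblet-enriched than in enterocyte-enriched libraries (log2 2.34, SE 0.23, limma adjusted p = 9.71e-05), and Dusp6, unlike it, was lowest in Lgr5-enriched libraries. Epha4, an ephrin receptor, averaged 3.93 ± 1.43 TPM in goblet-enriched and 25.5 ± 1.48 TPM in Lgr5-enriched libraries (SD, n = 3 each; log2 -2.47, SE 0.23, limma adjusted p = 0.000115). Emp1 (log2 -1.92, SE 0.57, limma adjusted p = 0.0302) and the cytokine signalling inhibitor Socs3 (log2 -1.19, SE 0.35, limma adjusted p = 0.0268) were lower there too, but 9 and 7 of 18 alternatives ended those calls. Between goblet-enriched and enterocyte-enriched libraries 5 of 22 were higher (Dusp7, Lrig1, Myc, Ier3 and Cblb) and 5 lower (Emp1, Socs3, Epha4, Cbl and Il17rd), with a median of 0.46. The share called over all genes was 44.1%, with 28.2% higher and 15.9% lower. Emp1 was at 5.38 ± 3.90 TPM in goblet-enriched and 295 ± 130 TPM in enterocyte-enriched libraries (SD, n = 3 each; log2 -5.62, SE 0.57, limma adjusted p = 0.000122). Spry3, the Sprouty gene outside the 9, was listed at 0 in all libraries.

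**Figure D5:**
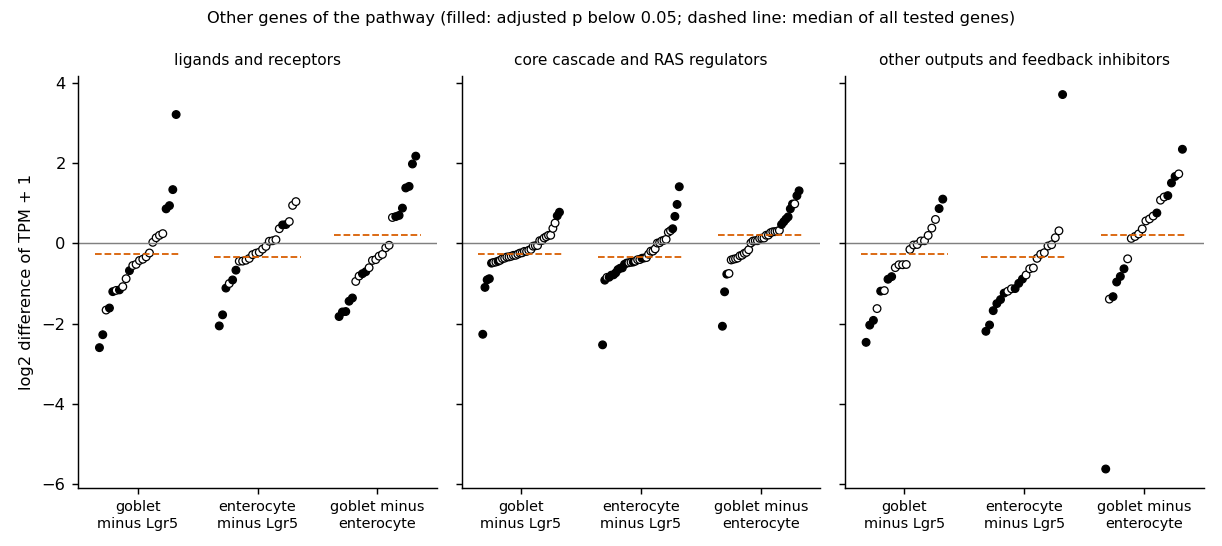
Log2 difference of TPM + 1 (vertical axis) for each tested gene of 3 pathway lists in 3 comparisons, ordered by value; filled points passed an adjusted p under 0.05 and the dashed lines mark the median of all genes tested. Values on both sides of 0 pass in each list, with Emp1 as the lowest point in goblet minus enterocyte and the highest in enterocyte minus Lgr5.

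Among the genes whose pattern was most like that of Etv5 were Casc4, D17H6S56E-5, Rcn1 and Dixdc1. Likeness was the root mean square difference of log2(TPM + 1), each gene centred on its own mean over the 9 libraries, among 12887 genes, and it was 0.397 for Casc4, 0.582 for D17H6S56E-5, 0.646 for Rcn1 and 0.686 for Dixdc1. Casc4 averaged 66.9 ± 29.4 TPM in goblet-enriched, 1.56 ± 0.334 TPM in enterocyte-enriched and 5.14 ± 1.34 TPM in Lgr5-enriched libraries (SD, n = 3 each). Dixdc1 averaged 17.4 ± 1.32 TPM in goblet-enriched, 0.618 ± 0.254 TPM in enterocyte-enriched and 1.49 ± 0.274 TPM in Lgr5-enriched libraries (SD, n = 3 each). None of the other 8 ERK genes was near the head of that ranking: Spry1 came at rank 906 and Etv4 at rank 967, and Spry4 was last of the 8 at rank 6375. Genes were not scaled to a common spread, so a gene with much smaller changes than Etv5 could not rank high, whatever its order of populations. The points share their libraries, depths and goblet cell content, so likeness is a description only.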

How the data were processed

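The deposited table holds log2 values for 24421 symbols in 9 libraries, made by the authors with Cufflinks on mm10, per the submitters' processing notes, which give no version. The sources used here give no aligner, annotation or counting strand (not stated), so opposite-strand genes cannot be told apart. Values of 0 and above were read as powers of 2 and lower ones as TPM minus 1, after which each library sums to 1000000 TPM. Whole reads, with a tolerance of 1e-06 of a read, were recovered for 18396 of 18396 genes above 0. They are the smallest whole numbers that fit, so read totals are lower bounds. Per-sample columns without use numbered 0. The test was limma 3.58.1 (R 4.3.3) on log2(TPM + 1) over 9 libraries with a mean-variance trend, for the 12888 genes that reached 1 TPM in 3 or more libraries, which left out 5508, and Benjamini-Hochberg adjustment at 0.05. Differences are on that log2 scale, which understates changes of low genes.

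Libraries were grouped by their labelled sort. The script was tested on simulated data. The pathway genes named are the 3 called with the largest change per list and comparison, with at least 5 TPM in a population. Of the genes most like Etv5, 1 is not reported here. Genes that make up a count of 5 or fewer were named beyond that rule after their values were seen. The members and lists were chosen with earlier results of these data known. Same-numbered libraries of different populations deviated together from their group means over genes, with correlations of 0.19 to 0.6. For libraries of different numbers the correlations ran from -0.52 to 0.17. The series text speaks of 3 independent mice. Enterocyte-enriched replicate 1 differs in sex-linked transcripts, so its number does not mark the same animal. The labels name a choice between sequencers, and the sequencer of each library is not used here. P-values measure the spread between these libraries. The main fit had no term for the replicate number, so that spread includes variation shared by same-numbered libraries. With the replicate block, 6357 genes were called between goblet-enriched and Lgr5-enriched libraries, against 4423 without it. Alternatives were another pseudocount, no filter, quantile and median-of-ratios scaling, fits of the compared libraries, the replicate block, no trend, each library left out, all replicates 1 left out, and limma-voom on recovered reads, the last chosen after seeing the data.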

Additional observations from a re-analysis of the deposited data

How the results depend on the processing

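Each result was recomputed under 18 alternatives. Among the counts of called genes, that of core cascade genes was the least stable. Between enterocyte-enriched and Lgr5-enriched libraries it was 18, against 6 after quantile normalization and 10 after median-of-ratios scaling, and 10 to 22 when leaving out 1 library. Between goblet-enriched and Lgr5-enriched libraries it was 8, against 15 with the replicate block, 17 without replicate 1 of all 3 populations, and 4 to 15 when leaving out 1 library. Between goblet-enriched and enterocyte-enriched libraries it was 11, against 19 with the replicate block. Members called were 5 in the enterocyte-enriched comparison, 3 in the fit of 6 libraries and 2 to 5 with 1 library left out. In the goblet-enriched comparison they were 2, and 1 to 2 with 1 library left out. Ligands and receptors numbered 10 there, 14 with the replicate block and 6 to 13 with 1 library left out, and other outputs 8 and 5 to 9. The cause was not tested.

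Signs turned only for differences that were not called or not tested. Against Lgr5-enriched libraries, Phlda1 in enterocyte-enriched ones was 0.143 without replicates 1, and -1.034 to 0.053 with 1 library left out. Spry1 in goblet-enriched libraries was -0.219 without replicates 1 and -0.214 to 0.306 with 1 library left out, and Spry2 was -0.133 to 0.193. In enterocyte-enriched libraries Spry2 was 0.083 under median-of-ratios scaling, and Spry4 was -0.325 to 0.527 with 1 library left out. Among the 9 genes, the replicate block changed the calls of Spred1 and Spry2 alone. With 3 libraries per population, the SE of the log2 differences of the 9 genes ran from 0.19 for Dusp6 to 0.52 for Etv4.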
